A study of Mus musculus with 6 samples.

Results

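The short-chain dehydrogenase/reductase (SDR) genes Dhrs1, Dhrs4, Dhrs7, Dhrs7b, Dhrs11, Dhrs13, Cbr1, Cbr3, Cbr4 and Hsd17b10 are relatives of Bdh2, the gene deleted in this study. They were taken by gene name from the deposited count table, apart from the Bdh genes themselves. All 10 were found among its 54715 genes, and all 10 passed the filter on low counts that left 16758 genes to test. Transcripts were measured by RNA-seq in 6 libraries, of which 3 came from wild type (WT) advanced embryonic stem cells (ASCs; C1 to C3, here WT1 to WT3) and 3 from Bdh2-/- ASCs (KO1 to KO3). ASCs are mouse pluripotent cells held between the naive and the primed state. Both genotypes carry the same background, a cross of a 129/sv female with a GOF/GFP male, whose fluorescent reporter marks Pou5f1 activity. Both were grown in activin A, BMP4, CHIR99021 (a GSK3 inhibitor) and leukemia inhibitory factor. The knockout was made with CRISPR/Cas9 and expanded from single colonies, and the study went on with 1 ASC line that carries a deletion on both alleles. The labels do not say which clone each library came from, or that the replicates are separate cultures. The p-values thus weigh each difference against the spread between these libraries. If all knockout libraries came from 1 line, a difference of genotype cannot be told apart from a difference between clones. Library totals ranged from 18927748 to 28333541 counts, and each of the 10 genes had between 130 and 3187 counts in every library.

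SDR enzymes pass hydride between NAD(H) or NADP(H) and a carbonyl or hydroxyl group. They share a nucleotide-binding fold and a catalytic tyrosine and lysine, and their substrates include ketone bodies, steroids, retinoids, prostaglandins, quinones and fatty acyl intermediates. Bdh2 is the cytosolic member that acts on 3-hydroxybutyrate and has been tied to the mammalian siderophore. Of the 10 relatives, Cbr1 and Cbr3 are cytosolic carbonyl reductases, Dhrs1, Dhrs4, Dhrs7, Dhrs7b, Dhrs11 and Dhrs13 belong to the dehydrogenase/reductase series, and Cbr4 and Hsd17b10 act in mitochondria.

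The targeted gene came first as a check of the labels. Bdh2 (chromosome 3, 135281221 to 135304426, GRCm38) had 203, 193 and 209 counts in the WT libraries and 164, 136 and 129 in the knockout libraries. As CPM (counts relative to library size, scaled by TMM factors), these are 9.43 ± 1.10 (SD, n = 3) and 5.44 ± 0.485 (SD, n = 3), a log2 fold change of -0.79 (SE 0.12, edgeR adjusted p = 2.46e-04). The knockout libraries thus held 57.7% of the WT level of Bdh2 transcript, and the genotypes did not overlap. A short deletion leaves most of the transcript to be counted, so this level says nothing of the protein. The paper found hardly any BDH2 protein in its knockout ASC lines by Western blot. Its RT-qPCR gave lower mRNA levels in those lines than the share seen here. The 2 guides of the study are shown here with the adjoining PAM in capitals, because they define the allele and because a guide could in principle meet a related gene:
sgRNA1: tcccttgagcggcagctgtcAGG
sgRNA2: aggatccactatgggccgacTGG
On the minus strand, sgRNA1 lies at chr3:135285628-135285647, in coding sequence of exon 2 of Bdh2-201, and was found in 2 Bdh2 transcripts. On the plus strand, sgRNA2 lies at chr3:135285586-135285605, in coding sequence of exon 2 of Bdh2-202, and was found in only that transcript. Each matched a Bdh2 transcript with 0 mismatches. In the annotated transcripts of the 10 relatives, the closest 20-base stretch next to an NGG had 7 mismatches with sgRNA1, in Dhrs13, and 8 with sgRNA2.

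Upstream sequence is shown for 4 genes that form 2 pairs on the same chromosome, since within each pair 1 gene changed and the other did not pass the test. Each stretch ends at the last base before the annotated gene start used by RefSeq (GRCm38.p6) or, where a GENCODE M21 exon of the gene covers that base, before that exon. For Cbr1 the listed gene begins further upstream, at 93605853, so its stretch lies within the listed gene, between annotated exons, and precedes only the RefSeq start. For Dhrs1 nearly all of the stretch lies within the neighbouring listed gene Nop9 (55745693 to 55755500). Its sequence is thus not upstream sequence of Dhrs1 alone. Capitals mark GC boxes (GGGCGG on either strand):
Cbr3 (chr16:93682969-93683214, plus strand): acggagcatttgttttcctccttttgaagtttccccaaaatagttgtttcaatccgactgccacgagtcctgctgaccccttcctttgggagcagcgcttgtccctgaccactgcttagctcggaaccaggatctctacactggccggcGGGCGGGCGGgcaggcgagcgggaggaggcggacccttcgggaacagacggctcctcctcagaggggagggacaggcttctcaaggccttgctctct
Cbr1 (chr16:93607587-93607836, plus strand): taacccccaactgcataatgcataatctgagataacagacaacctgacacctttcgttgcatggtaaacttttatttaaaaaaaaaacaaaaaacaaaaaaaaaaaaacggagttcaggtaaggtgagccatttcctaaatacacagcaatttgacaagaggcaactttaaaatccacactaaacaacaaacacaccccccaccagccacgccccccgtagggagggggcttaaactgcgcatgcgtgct
Dhrs4 (chr14:55478508-55478757, plus strand): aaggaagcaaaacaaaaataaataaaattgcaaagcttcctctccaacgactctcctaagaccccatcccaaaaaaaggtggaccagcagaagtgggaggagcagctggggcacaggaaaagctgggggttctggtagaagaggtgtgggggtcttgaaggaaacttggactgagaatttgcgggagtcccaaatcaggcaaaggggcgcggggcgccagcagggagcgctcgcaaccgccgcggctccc
Dhrs1 (chr14:55745691-55745934, minus strand): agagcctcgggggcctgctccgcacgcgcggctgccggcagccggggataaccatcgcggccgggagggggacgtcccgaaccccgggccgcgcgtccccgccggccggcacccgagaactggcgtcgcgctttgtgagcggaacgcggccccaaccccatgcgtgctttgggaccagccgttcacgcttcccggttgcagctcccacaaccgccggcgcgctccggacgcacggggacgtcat
In the 250 bases before the RefSeq start, Cbr3 had 59.6% G and C with 14 CpG, Cbr1 41.6% with 6, Dhrs4 55.2% with 10 and Dhrs1 74% with 38, where the median of 32851 promoters was 52.4% G and C. The same windows were searched on both strands for 5 motifs. The first was the GC box shown above, and the second was the TATA box, spelled TATAAA, which 12.4% of all promoters hold. The third was the CCAAT box, whose name gives its letters and which 33.8% hold. The antioxidant response element was searched by its core, TGACNNNGC, which 10.2% of all promoters hold. The last was the cAMP response element, TGACGTCA, which 1.55% hold. Cbr3 had 2 overlapping GC boxes that begin 101 and 97 bases before the start. None of the 5 motifs was found in the windows of Cbr1, Dhrs4 and Dhrs1. Among the other 6 genes, Hsd17b10 had a GC box and a CCAAT box, Dhrs11 had 2 CCAAT boxes and a GC box, and Dhrs7b had a cAMP response element. A GC box was thus in 3 of 10 windows, and 32.7% of all promoters hold one. The antioxidant response core was in 0 of 10. These matches describe letters in a short window, not factor binding.

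In Bdh2-knockout ASCs, 3 of the 10 relatives rose (Cbr3, Dhrs4, Dhrs13), 3 fell (Dhrs7, Cbr4, Hsd17b10) and 4 did not pass the test (Dhrs1, Dhrs7b, Dhrs11, Cbr1). Calls were made at an adjusted p under 0.05 over all tested genes. The 6 called genes are 60.0% of the group, with 30.0% higher and 30.0% lower. Over all tested genes, 41.7% were called, 21.0% higher and 20.8% lower. The same 6 genes had no overlap between the genotypes, and 52.4% of all tested genes had none. The median log2 fold change was 0.01 over the 10 genes and -0.01 over all tested genes. With so few genes, these shares describe the group and do not set it apart from the rest of the genome. For a single gene, 3 libraries against 3 cannot give an exact two-sided permutation p below 0.1, and each of the 6 reached that value.

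**Figure D1:**
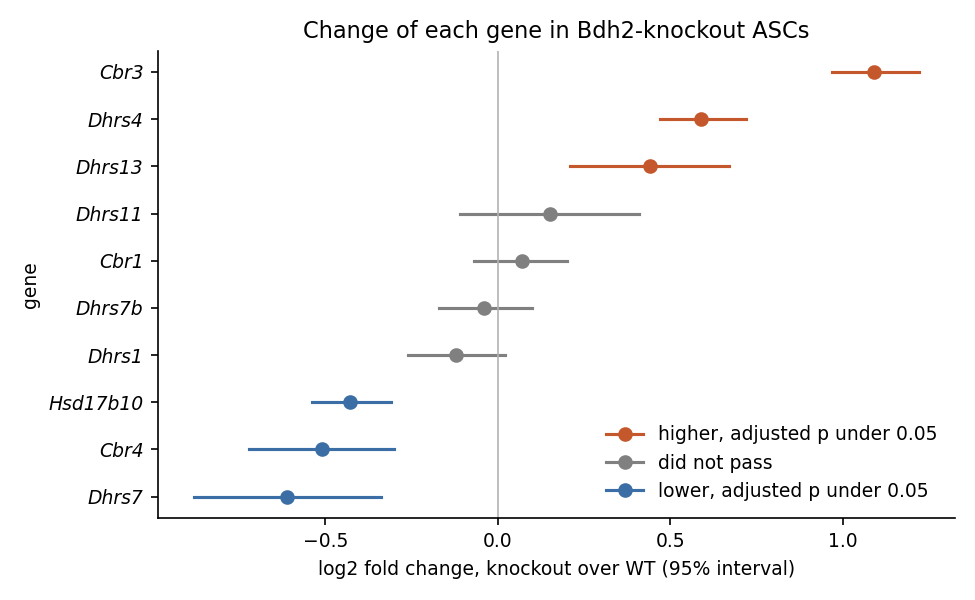
Log2 fold change of each of the 10 genes in Bdh2-knockout over WT ASCs (x axis) with its 95% interval (bars), coloured by the call at an adjusted p under 0.05. Cbr3 lies farthest to the right at 1.09 and Dhrs7 farthest to the left at -0.61, and the intervals of the 4 grey genes cross 0.

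Among the cytosolic carbonyl reductases, Cbr3 rose and Cbr1 did not pass the test. Both use NADPH to reduce quinones and other carbonyls, with Cbr1 the better known for xenobiotics and prostaglandins. Cbr3 (chromosome 16, 93683215 to 93690990, plus strand) had 52.6, 49.8 and 57.3 CPM in WT1 to WT3 and 116, 114 and 111 CPM in KO1 to KO3. Every knockout library was at least 53.9 CPM above every WT library. The mean went from 53.2 ± 3.78 CPM to 114 ± 2.28 CPM (SD, n = 3 each), which is 2.14-fold with a 95% interval of 1.95 to 2.33 (log2 fold change 1.09, SE 0.06, edgeR adjusted p = 3.84e-08). Of all tested genes, 95.2% changed less than Cbr3 in size, and 83.5% had a lower mean CPM. Cbr1 (chromosome 16, 93605853 to 93610505, plus strand) had 48.2, 42.6 and 48.7 CPM in WT and 46.3, 51.5 and 48.4 CPM in the knockout. The libraries of the 2 genotypes overlapped. Its log2 fold change was 0.07 (SE 0.06, edgeR adjusted p = 0.426), with a 95% interval of -0.07 to 0.20.

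The 2 genes start 77362 bases apart on the same strand, and 77.8% of 829 aligned coding bases are the same in mouse. Per kilobase of listed exon length, Cbr3 stood at 2.22, 2.38 and 2.39 times Cbr1 in the WT libraries and at 5.09, 4.52 and 4.68 times in the knockout libraries. The size of this ratio rests on the listed lengths, and with the length of 1 transcript per gene its mean was 1.21 in WT and 2.47 in the knockout. Its difference between genotypes does not depend on length. It was 1.03 on the log2 scale, without overlap (exact permutation p = 0.1, the smallest 3 against 3 can give). Of transcript sequence, 0.0892% of the 50-base stretches of Cbr3 also occur in Cbr1. For Cbr1, 4.12% of the 50-base stretches recur in Cbr3 or in the annotated gene Gm5678.

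**Figure D2:**
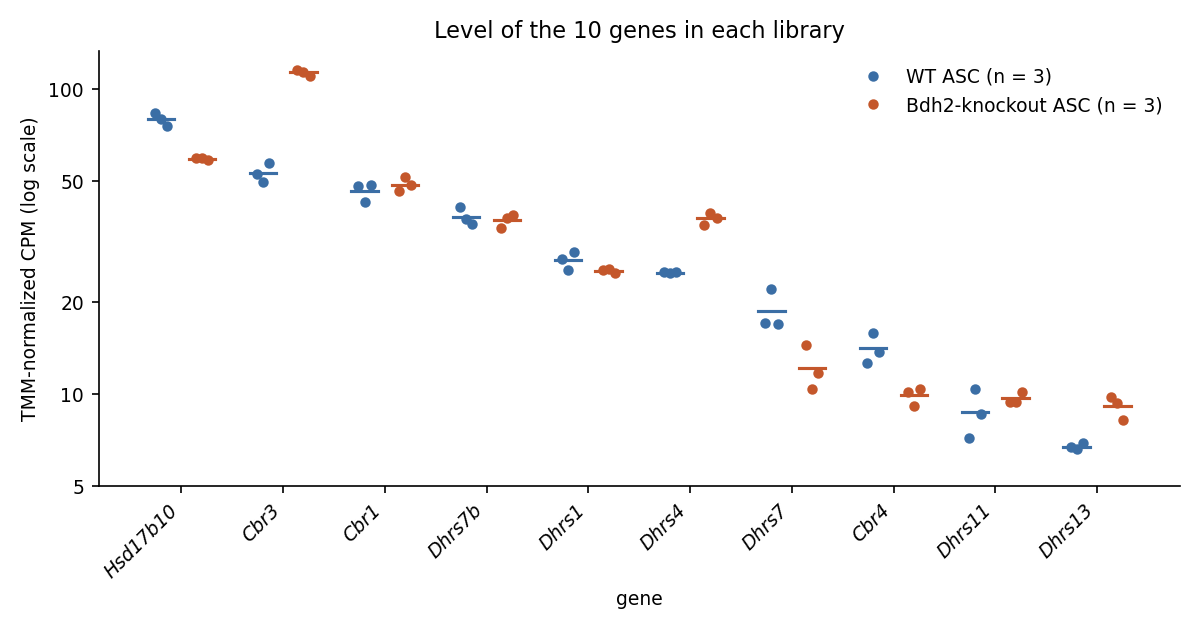
Level of each of the 10 genes (y axis, TMM-normalized CPM on a log scale) in the 3 WT libraries (blue) and the 3 Bdh2-knockout libraries (orange), with a bar at each mean. The points of Cbr3, Dhrs4 and Dhrs13 lie higher and those of Hsd17b10, Dhrs7 and Cbr4 lower in the knockout without overlap, and Cbr1, Dhrs7b, Dhrs1 and Dhrs11 overlap.

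In the dehydrogenase/reductase series, Dhrs4 and Dhrs13 rose and Dhrs7 fell. Dhrs4, a peroxisomal NADPH-dependent reductase of carbonyls and retinal (chromosome 14, 55478758 to 55490340, plus strand), had 25.1, 24.9 and 25.1 CPM in WT and 35.9, 39.3 and 38.0 CPM in the knockout. The WT libraries were nearly equal, with a coefficient of variation of 0.395%, and all knockout libraries were higher. Counting error alone would give 4.30% in WT, so this closeness is no measure of how stable the gene is. The change was 1.51-fold, with a 95% interval of 1.38 to 1.64 (log2 fold change 0.59, SE 0.06, edgeR adjusted p = 6.34e-06). Dhrs13, an SDR related to the retinol dehydrogenases (chromosome 11, 78032280 to 78037866, plus strand), had 6.70, 6.59 and 6.93 CPM in WT and 9.80, 9.39 and 8.26 CPM in the knockout. Its log2 fold change was 0.44 (SE 0.11, edgeR adjusted p = 0.00482), and the genotypes were 1.34 CPM apart at their closest. Tested against a fold change of 1.2 in place of no change, it did not pass (adjusted p = 0.0931). Of its exon bases, 19.6% are also covered by Dhrs13os on the opposite strand. Whether counting used strand is not given in the sources used here, so reads of the 2 genes cannot be told apart there.

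Dhrs7, a microsomal SDR that acts on steroids and retinoids (chromosome 12, 72650353 to 72664909, minus strand), had 17.1, 22.1 and 17.0 CPM in WT and 14.5, 10.4 and 11.7 CPM in the knockout. It was the least even of the called genes, with coefficients of variation of 15.6% in WT and 17.0% in the knockout, where counting error alone would give 4.99% and 5.58%. The highest knockout library was still 2.54 CPM below the lowest WT library. The log2 fold change was -0.61 (SE 0.13, edgeR adjusted p = 0.00174), and it ranged from -0.74 to -0.48 when 1 library was left out. For Dhrs7, 1.43% of the 50-base stretches recur in Gm4756, a tested gene whose lower listed coordinate is 74351 bases before that of Dhrs7 and which had a log2 fold change of -0.66 (SE 0.28, edgeR adjusted p = 0.0687).

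Dhrs1, Dhrs7b and Dhrs11 did not pass the test. Dhrs1, an SDR of the endoplasmic reticulum (chromosome 14, 55739020 to 55745690, minus strand), had 27.8, 25.6 and 29.2 CPM in WT and 25.6, 25.7 and 24.9 CPM in the knockout. Its log2 fold change was -0.12 with a 95% interval of -0.26 to 0.02 (edgeR adjusted p = 0.157). Scaled by library totals without TMM it was -0.18 (edgeR adjusted p = 0.0401). Dhrs7b makes ether lipids by reducing acyl dihydroxyacetone phosphate (chromosome 11, 60830631 to 60860195, plus strand). It had 41.0, 37.7 and 36.1 CPM in WT and 35.0, 37.9 and 38.8 CPM in the knockout, and its log2 fold change was -0.04 with a 95% interval of -0.17 to 0.10. Dhrs11 (chromosome 11, 84820856 to 84828994, minus strand) reduces ketosteroids. It had 7.21, 10.4 and 8.59 CPM in WT and 9.40, 9.46 and 10.2 CPM in the knockout, for a log2 fold change of 0.15 with a 95% interval of -0.11 to 0.41. Its WT libraries spread most of all, with a coefficient of variation of 18.1%, so a change of up to 1.33-fold upward lies within the interval.

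The lower listed coordinates of Dhrs4 and Dhrs1, which lie on opposite strands of chromosome 14, are 260262 bases apart. Like the Cbr pair, the levels of the 2 genes moved apart. The level of Dhrs4 per kilobase of listed exon length was 1.42, 1.53 and 1.35 times that of Dhrs1 in WT and 2.20, 2.41 and 2.41 times in the knockout. With the length of 1 transcript per gene the mean ratio was 0.965 in WT and 1.58 in the knockout. In either case the ratio differed between genotypes by 0.71 on the log2 scale, without overlap (exact permutation p = 0.1).

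Both mitochondrial enzymes fell. Hsd17b10 oxidizes 2-methyl-3-hydroxybutyryl-CoA in the degradation of isoleucine and is also a subunit of mitochondrial RNase P, which trims the 5′ ends of mitochondrial tRNAs. It lies on chromosome X, 152001845 to 152004442, on the plus strand. Its CPM values were 83.6, 79.9 and 76.0 in WT and 59.4, 59.7 and 58.8 in the knockout. The knockout libraries had a coefficient of variation of 0.769%, below the 2.53% of counting error alone, and lay at least 16.2 CPM below every WT library. The knockout level was 74.3% of WT (log2 fold change -0.43, SE 0.05, edgeR adjusted p = 4.17e-05). Cbr4 forms, with Hsd17b8, the ketoacyl reductase of mitochondrial fatty acid synthesis. It lies on chromosome 8, 61487734 to 61506694, on the plus strand. It had 12.7, 15.9 and 13.8 CPM in WT and 10.2, 9.17 and 10.4 CPM in the knockout, which is 70.3% of WT (log2 fold change -0.51, SE 0.10, edgeR adjusted p = 0.00122).

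Neither partner of Hsd17b10 in mitochondrial RNase P was lower. There, the methyltransferase subunit Trmt10c rose from 44.3 ± 3.40 to 51.1 ± 1.27 CPM (SD, n = 3 each; log2 fold change 0.21, SE 0.06, edgeR adjusted p = 0.0134). It did not pass with library totals (0.15, edgeR adjusted p = 0.0640), without KO2 (0.20, edgeR adjusted p = 0.0512) or against a fold change of 1.2. Trmt10c lies on chromosome 16, whose tested genes had a median log2 fold change of 0.19, so its change was close to that of its chromosome. The nuclease subunit, listed as 1110008L16Rik, had a log2 fold change of 0.09 (edgeR adjusted p = 0.293). Per kilobase of listed exon length, Hsd17b10 stood at 4.17 ± 0.224 times Trmt10c in WT and at 2.69 ± 0.0714 times in the knockout (SD, n = 3 each). This difference of -0.63 on the log2 scale came without overlap (exact permutation p = 0.1). The part of the chromosome-wide difference in it was not tested. The partner of Cbr4, Hsd17b8 (listed as H2-Ke6), had 0 to 7 counts in each library and was not tested. Of its exon bases, 86.4% are shared with Gm20427 on the same strand. Apart from Cbr4, which fell as given above, 6 genes of mitochondrial fatty acid synthesis were tested. Of these 6, 1 fell (16.7%) and 0 rose, against 20.8% lower and 21.0% higher over all tested genes. The 1 was Mcat, the malonyl transferase, at -0.27 (SE 0.06, edgeR adjusted p = 0.00391), and at -0.21 with adult hepatocyte transcripts as a covariate (edgeR adjusted p = 0.0558). Against a fold change of 1.2, Mcat did not pass either. Mecr, the enoyl reductase, was at 0.13 and Lipt2, the octanoyl transferase, at -0.08. Oxsm (ketoacyl synthase), Ndufab1 (acyl carrier protein) and Lias (lipoate synthase) were within 0.01 of 0, and their sign changed with the setting. In isoleucine degradation apart from Hsd17b10, 3 of 9 tested genes fell (33.3%), 0 rose, and the median log2 fold change was -0.14, where 20.8% of all tested genes were lower. The 3 were Dbt, Acadsb and Echs1, at -0.26, -0.41 and -0.32.

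Levels of different genes were compared per kilobase of listed exon length and scaled library size (FPKM). In WT ASCs, Hsd17b10 was the highest of the 10 at 61.5 ± 2.93 FPKM (SD, n = 3) and Cbr3 the second at 42.5 ± 3.01 FPKM. Then came Cbr1 at 18.2, Dhrs4 at 14.3, Dhrs7b at 11.5, Dhrs1 at 9.98, Dhrs11 at 5.44, Dhrs7 at 5.29, Dhrs13 at 3.43 and Cbr4 at 2.26 FPKM. Among these neighbours only Dhrs11 (4.50 to 6.46 FPKM) and Dhrs7 (4.81 to 6.24 FPKM) overlapped. In knockout ASCs Cbr3 was first at 90.7 ± 1.82 FPKM and Hsd17b10 second at 45.7 ± 0.352 FPKM, followed by Dhrs4 at 21.5 and Cbr1 at 19.1 FPKM. Dhrs7b at 11.2, Dhrs1 at 9.20 and Dhrs11 at 6.04 FPKM kept their places. Dhrs13 at 4.65 FPKM stood above Dhrs7 at 3.45 FPKM, and Cbr4 remained last at 1.59 FPKM. No neighbours overlapped there. The highest gene stood 27.2 times above the lowest in WT and 57.0 times in the knockout. This order holds for the listed length, which joins all annotated exons of a gene. With the length of 1 transcript per gene instead (the GENCODE M21 transcript with the longest coding sequence), an alternative chosen after the data were seen, 5 of the 10 genes took another place in WT and 5 in the knockout. Dhrs7b and Dhrs1, at 24.6 and 18.7, then stood above Dhrs4 at 18 FPKM in WT, where Dhrs1 and Dhrs4 overlapped, and Dhrs7 at 14.3 stood above Dhrs11 at 6.95 FPKM. In the knockout Cbr1 at 39.4 stood above Dhrs4 at 27.1 FPKM, and Dhrs7 at 9.33 stood above Dhrs11, with overlap, and above Dhrs13. Hsd17b10 and then Cbr3 in WT, Cbr3 and then Hsd17b10 in the knockout, and Cbr4 as the lowest in both held under either length.

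**Figure D3:**
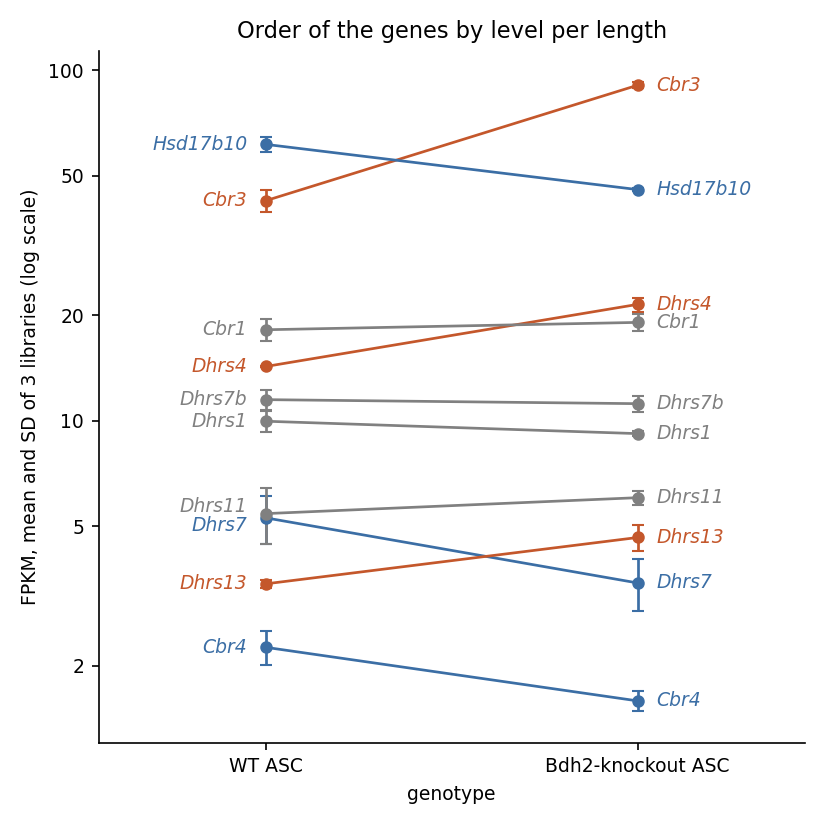
Mean FPKM with SD of 3 libraries (y axis, log scale) for each of the 10 genes in WT and Bdh2-knockout ASCs, joined by lines coloured by the call (orange higher, blue lower, grey not passed). By listed length, the pairs that change places are Cbr3 with Hsd17b10, Dhrs4 with Cbr1 and Dhrs13 with Dhrs7; by transcript length, of these pairs only the first does, and Dhrs4 instead passes Dhrs7b and Dhrs1.

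The sum over the 10 genes went from 174 ± 2.75 to 213 ± 2.33 FPKM (SD, n = 3 each). Without Cbr3 it went from 132 ± 2.73 to 122 ± 1.85 FPKM. Cbr3 made up 24.3% of the sum in WT and 42.6% in the knockout, and Hsd17b10 made up 35.3% and 21.5%. With transcript lengths the sums were 253 and 289 FPKM, of which Cbr3 made up 18% and 33.6% and Hsd17b10 31.8% and 20.7%. The spread between libraries was above counting error for 8 of the 10 genes in WT and for 7 in the knockout.

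Cbr1 and Cbr3 lie on a chromosome on which more genes rose than fell. Of 494 tested genes of chromosome 16, 44.7% were higher and 8.91% lower in the knockout, and their median log2 fold change was 0.19. On the other chromosomes the median ran from -0.07 to 0.02 and the share of higher genes from 14.3% to 26.5%. Against this chromosome-wide level, Cbr1 at 0.07 stood above 35.2% of the genes of chromosome 16 and Cbr3 at 1.09 above 97.2%. The nearest tested genes on either side of the pair were Setd4 at -0.08 (edgeR adjusted p = 0.403) and Dopey2 at 0.08 (edgeR adjusted p = 0.338). Within 1 Mb of Cbr3, 5 of 14 other tested genes were higher and 2 lower, with a median of 0.12. The part of the chromosome-wide difference in the change of Cbr3 was not tested. For Dhrs4, the tested genes within 1 Mb had a median of 0.08, with 17 of 55 higher and 10 lower. Around Hsd17b10 it was -0.01, with 4 of 18 higher and 4 lower. Around Cbr4 it was -0.24, with 0 of 9 higher and 4 lower, and around Dhrs7 it was -0.14, with 1 of 18 higher and 6 lower. Around Dhrs13 it was 0.01, with 14 of 43 higher and 8 lower. Of the relatives that did not pass, Dhrs11 had 12 higher and 2 lower genes among 19, Dhrs7b 5 and 6 among 37, Cbr1 6 and 2 among 14, and Dhrs1 13 and 12 among 50. Over all tested genes, 21.0% were higher and 20.8% lower.

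**Figure D4:**
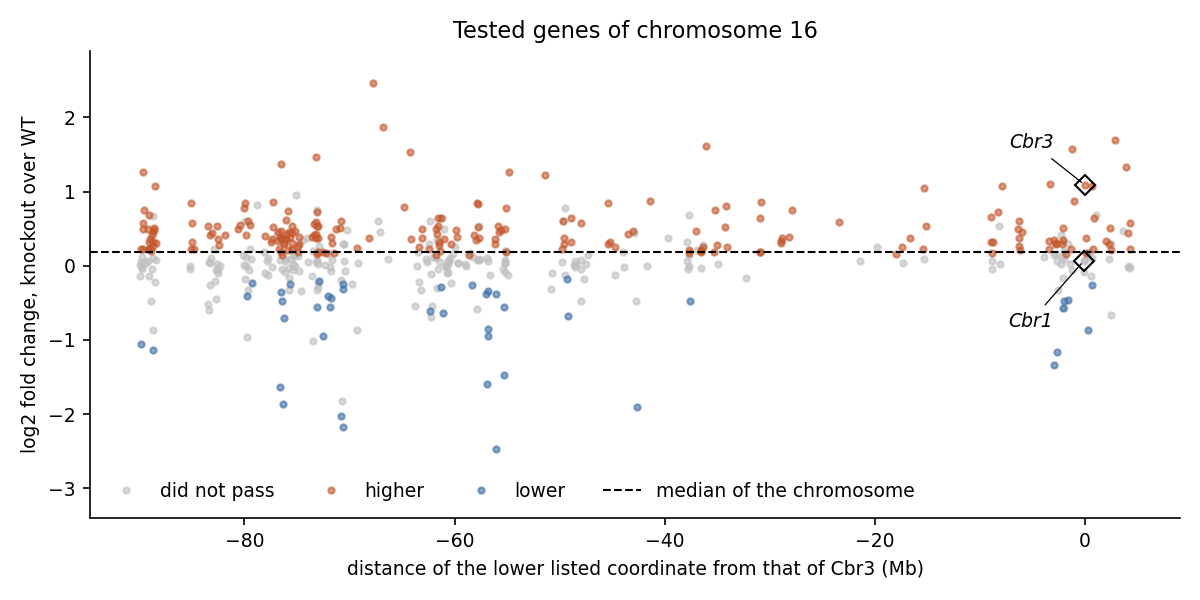
Log2 fold change, knockout over WT (y axis), of each tested gene of chromosome 16 by the distance of its lower listed coordinate from that of Cbr3 (x axis, Mb), coloured by the call, with a dashed line at the median of 0.19. Cbr3 (upper diamond) lies at 1.09 and Cbr1 (lower diamond), which starts 77362 bases away, at 0.07.

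The wider SDR family held 65 further genes in the table, apart from the Bdh genes, of which 42 were tested. The remaining 23 had at most 43 counts in any library. Of the 42, 6 rose (14.3%) and 11 fell (26.2%), against 21.0% and 20.8% of all tested genes, and their median log2 fold change was -0.05. The count of decreases was 4 with DESeq2 and 6 without WT1 or without WT2. Genes are named here if their mean count was at least 50 and the genotypes did not overlap. The largest increases by this rule were Spr, which makes tetrahydrobiopterin, at 0.43, Rdh10, a retinol dehydrogenase, at 0.42, Hsd17b11, an enzyme of lipid droplets, at 0.31, and Hsd17b14 at 0.27. The largest decreases by the same rule were Pecr, a peroxisomal enoyl-CoA reductase, at -0.41, Hsdl2, a peroxisomal SDR, at -0.28, Blvrb, a biliverdin reductase, at -0.28, and Tgds, a sugar nucleotide dehydratase, at -0.27. Of these, Hsdl2 (edgeR adjusted p = 0.0454) lost its call in 10 of 15 other settings and Tgds in 4. Rdh7, outside the rule, was called at -2.62 (edgeR adjusted p = 0.0164). It had 3.45, 2.58 and 0.475 CPM in WT and 0.109, 0.880 and 0 CPM in the knockout, with overlap and with its highest values in WT1, WT2 and KO2, as for the adult hepatocyte transcripts. It did not pass without WT1 (-2.11, edgeR adjusted p = 0.0833), WT2, KO1 or KO3, under DESeq2, or with adult hepatocyte transcripts as a covariate (-0.70, edgeR adjusted p = 0.335), and ranged from -5.07 to -2.08 without single libraries. The other ketone body dehydrogenase, Bdh1, had 56.1 ± 4.03 CPM in WT and 52.1 ± 2.71 CPM in the knockout (SD, n = 3 each; log2 fold change -0.11, edgeR adjusted p = 0.188).

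Carbonyl reduction is also the work of the aldo-keto reductases. Of 7 tested aldo-keto reductases 0 rose and 3 fell (42.9%, against 20.8% of all tested genes). By the naming rule these include Akr1e1 at -0.81 (SE 0.15, edgeR adjusted p = 6.69e-04) and Akr7a5 at -0.38 (SE 0.09, edgeR adjusted p = 0.00427). Against a fold change of 1.2, Akr7a5 did not pass. The third, Akr1c6 at -2.71 (edgeR adjusted p = 0.0147), had 4.69, 2.23 and 0.277 CPM in WT and 0.0726, 0.770 and 0.209 CPM in the knockout, with overlap between genotypes and, like the adult hepatocyte transcripts, its highest values in WT1, WT2 and KO2. It did not pass without WT1 (-1.75, edgeR adjusted p = 0.114), KO1 or KO3, under DESeq2 or limma-voom, or with the hepatocyte covariate (-0.32, edgeR adjusted p = 0.661), and ranged from -4.04 to -1.75 without single libraries. Targets of NRF2, the transcription factor that induces carbonyl and quinone reductases under electrophile stress, formed another list. Of 17 tested targets 8 rose (47.1%, against 21.0% of all tested genes) and 3 fell (17.6%, against 20.8%), with a median of 0.28. Nqo1, the quinone reductase, had 33.5, 34.4 and 38.1 CPM in WT and 73.2, 69.1 and 69.4 CPM in the knockout. This change of 0.99 (SE 0.06, edgeR adjusted p = 1.05e-07) was close in size to that of Cbr3. Srxn1, sulfiredoxin, rose by 0.90. In the same list Slc7a11, the cystine transporter, was at -0.68 and Gstm1, a glutathione transferase, at -0.56. The difference between this list and the rest of the genome was not tested.

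**Figure D5:**
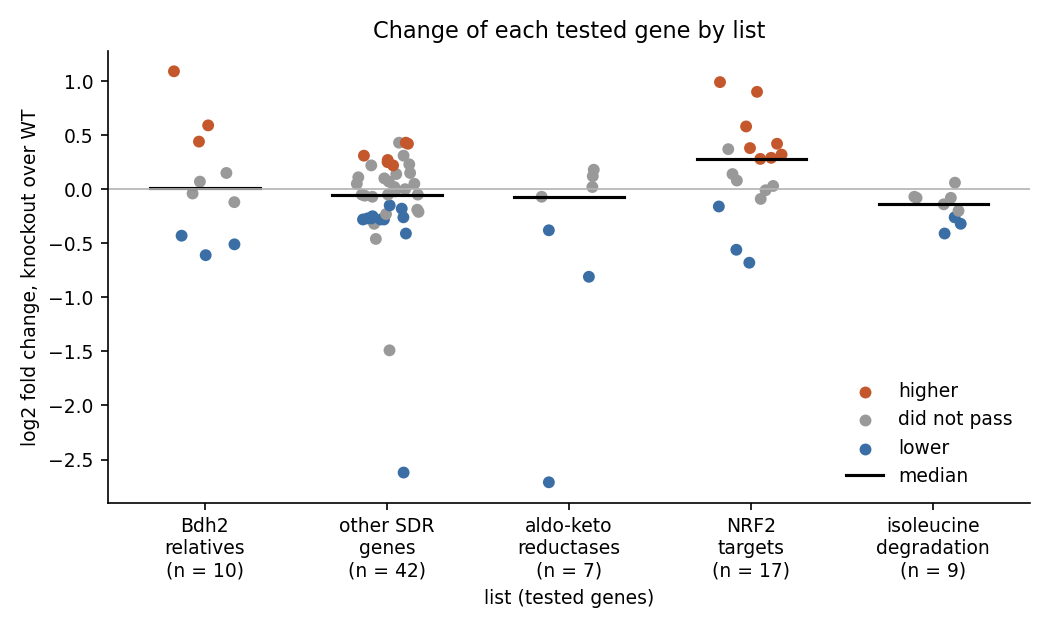
Log2 fold change, knockout over WT (y axis), of every tested gene of 5 lists (x axis), coloured by the call, with a bar at each median. The median is 0.01 for the 10 relatives of Bdh2, -0.05 for the other SDR genes and 0.28 for the NRF2 targets.

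Summed markers of primitive endoderm and of fibroblasts did not overlap between genotypes, while those of pluripotent cells, adult hepatocytes and trophectoderm did. In bulk RNA fewer cells of a type and less RNA per cell cannot be told apart. Summed markers of pluripotent cells were 7177 to 7276 CPM in WT and 7275 to 7450.5 CPM in the knockout, so the sums only just overlapped. Taken singly, 5 of these 10 markers were called higher and 1 lower. Of the 10, 8 had no overlap between genotypes, as had 52.4% of all tested genes. All 9 primitive endoderm markers rose, from a summed 122 to 128 CPM in WT to 383 to 433 CPM in the knockout. Adult hepatocyte transcripts, of which 10 of 13 were lower and 0 of 13 were without overlap, had their highest values in WT1, WT2 and KO2. None of the 10 passed without WT1. The sum over all 13 ranged from 56.1 to 571 CPM in WT and from 33.9 to 168 CPM in the knockout. Fibroblast markers summed to 31.9 to 36.1 CPM in WT and 23.9 to 29.2 CPM in the knockout, and trophectoderm markers to 129 to 154 and 148 to 154 CPM. With the hepatocyte level as a covariate, all 6 called relatives kept their call and direction, as they did without each of the 6 libraries in turn. The part of primitive endoderm markers in these results was not tested.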

How the data were processed

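The deposited table held gene counts for 3 WT and 3 Bdh2-knockout ASC libraries, with gene positions and lengths. Per the labels and the study's methods, the authors aligned reads to GRCm38 with HISAT2 (2.0.5) and counted them per gene with featureCounts. The deposited counts are not normalized. Whether counting used strand is not given in the sources used here.

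Counts were tested with edgeR (4.0.16, R 4.3.3) by TMM factors, its default filter on low counts, the quasi-likelihood test of genotype and Benjamini-Hochberg adjustment at 0.05. DESeq2 (1.42.0) and limma-voom (3.58.1) were alternatives. The study used DESeq2 in an earlier version. The SE is the size of the log2 fold change over the square root of F. The scripts were tested on simulated data. Replicates of 1 genotype differed beyond sampling noise (chi-square 3.83 to 8.82 per gene), so each library counted once. Single values used two-sided exact permutation tests.

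The members, lists and tests were chosen with earlier results of these data known. Named by rule were the 10 members, Bdh1, Bdh2, all tested genes of mitochondrial RNase P and fatty acid synthesis, and the 4 largest changes in each direction of other SDR genes and 2 of aldo-keto reductases and NRF2 targets (adjusted p under 0.05, mean count of at least 50, no overlap). Genes of isoleucine degradation and neighbours were named after their values were seen. Promoters came from RefSeq (10 of 10 matched) and exons from GENCODE M21.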

Additional observations from a re-analysis of the deposited data

How the results depend on the processing

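All 6 member calls held in direction and significance under DESeq2, limma-voom, median-of-ratios factors, library totals, no filter, a mean count of at least 50, a hepatocyte covariate and each left-out library. Against a fold change of 1.2 by glmTreat, Dhrs13 no longer passed (0.44, adjusted p = 0.0931), and 5 calls were left. Under library totals, which shift the median of all genes by -0.06, Dhrs1 passed at -0.18 (adjusted p = 0.0401). Dhrs7b, not called, changed sign to 0.02 with the hepatocyte covariate and ranged from -0.08 to 0.02 without single libraries, above 0 without WT1 (0.01) or KO1. At a fold of 1.2 the calls over all genes came to 1185 higher and 1272 lower, and over other SDR genes to 1 higher and 2 lower. Lower calls among other SDR genes were 11 in the main test, 4 under DESeq2, 5 with the hepatocyte covariate, and 6 to 11 without 1 library (6 without WT1 or WT2, 7 without KO1 or KO2); the cause was not tested. Oxsm, Ndufab1 and Lias, near 0, changed sign: -0.06, -0.05 and -0.05 under library totals, -0.01, -0.00 and -0.01 with the mean count filter, -0.04, -0.04 and -0.02 with the hepatocyte covariate, and -0.04 to 0.04, -0.03 to 0.05 and -0.01 to 0.03 without single libraries. Oxsm was also at -0.00 under limma-voom and -0.01 without KO3. Of 345 values for the genes named by rule other than the 10 and Bdh2, 304 kept their direction and their side of the threshold, 24 no longer passed, 1 newly passed, and 16, for genes not called, changed sign.

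The replicate numbers were not used as pairs. Same-numbered deviations correlated at -0.1582, 0.0452 and 0.2056, and those of different numbers ranged from -0.3008 to 0.3041. With 3 libraries per genotype these values cannot exclude pairing. With the replicate number as a block, 6452 genes were called in place of 6996, and 3 members were higher and 3 lower as before. FPKM from library totals and TPM rescale all genes of a library alike and so do not test the order of levels. With transcript length in place of listed length, chosen after seeing the data, 5 of the 10 genes took another place in WT and 5 in the knockout. Genes under about 3 counts, or 0.1059 to 0.1585 CPM in a library, are not resolved at this depth.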
